A study of Mus musculus with 158 samples.

Results

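The regions described here held a hotspot of accessible DNA in every adult data set and overlapped a CTCF hotspot of embryonic stem cells. They were chosen by measured values: DNase I hotspots of 20 adult data sets that overlapped by at least 1 bp were merged on the autosomes, and a merged region was kept when it held a hotspot of all 20 sets and overlapped a CTCF ChIP-seq hotspot of mouse embryonic stem cells (mESCs). This gave 18371 regions of 714403 merged regions, or 67.2% (95% Wilson interval 66.6 to 67.8%) of the 27339 regions that were accessible in all 20 sets, called constitutive here. The other 8968 constitutive regions, which overlapped no CTCF hotspot, are the comparison used throughout. Merging can chain hotspots that do not overlap each other, so a region need not share an open base across the 20 sets. A CTCF hotspot or transcript start within a region may thus lie outside the DNase I hotspots of some sets.

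DNase-seq maps DNA that is open to cutting by DNase I, and a hotspot is a stretch where cuts exceed the local background at a false discovery rate (FDR) of 5%. The adult sets came from 5 kinds of F1 mice that share C57BL/6J (B6) as 1 parent and are named B6x129, B6xC3H, B6xCAST, B6xPWK and B6xSPRET after both parents. CAST, PWK and SPRET are wild-derived, and SPRET is another species, Mus spretus. Each hybrid was profiled in whole liver, whole kidney, whole lung, and B cells, the last enriched from femoral marrow of 8-week-old female mice by depleting CD43- and CD11b-bearing cells. Libraries of a hybrid and tissue were pooled before hotspots were called, so there is 1 set per hybrid and tissue and the set is the replicate. The mESCs were B6xCAST cells grown in an 80/20 2i medium, with 1 CTCF set (1 library in the labels) and 1 DNase-seq set (2 libraries in the labels), and each set is a single file.

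CTCF is a zinc finger protein that binds a long, directional DNA motif. It stops the loop-extruding cohesin complex, so that pairs of CTCF sites whose motifs point toward each other anchor chromatin loops, and it insulates promoters from enhancers beyond the loop. Many of its sites are occupied in most cell types, and CTCF also binds at active promoters, which are themselves accessible in most cells.

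The labels were checked at marker genes. A hotspot covered an annotated start in all 5 liver sets for 5 of 5 liver markers, in all 5 kidney sets for 4 of 5 kidney markers, in all 5 lung sets for 5 of 5 lung markers and in all 5 B cell sets for 5 of 5 B cell markers, and the mESC DNase-seq set covered 4 of 5 stem cell markers. The starts of Cd79a and Cd79b, which encode parts of the B cell receptor complex, were also covered in 4 of 5 lung sets, that of Ebf1, a B lineage transcription factor gene, in all 20 sets, and that of Alb, the liver gene for serum albumin, in all kidney and lung sets. Nphs1, the kidney marker that fell short, was covered in 3 kidney sets and 4 liver sets, and Umod, another kidney marker, in 4 liver sets. The stem cell marker without an mESC hotspot was Sox2. The start of Esrrb, also a stem cell marker, was covered in all liver and kidney sets and in 3 lung sets. Cells of other types in whole organs were not separated, and their part in the hotspots was not tested. The autosomal hotspots per set numbered 76055 (B6xC3H B cells) to 286482 (B6x129 liver). The B cell sets were the smallest of each hybrid. Read depth is not in the files.

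CTCF overlap rose with the number of adult sets in which a region was accessible. Of all merged regions, 7.95% overlapped a CTCF hotspot and 3.83% were constitutive. The share with CTCF was 2.35% among the 296371 regions found in 1 set, 17.8% in 15 sets, 34.9% in 16, 57.6% in 19 and 67.2% in 20, though it was lower at 4, 5, 10 and 15 sets than at 1 set fewer. Regions open in whole tissues and closed in the rest had low shares. Those of all 15 liver, kidney and lung sets and no B cell set overlapped CTCF in 12.1% of 8329 cases, and those confined to 1 tissue and found in all 5 of its sets in 1.31% (lung) to 2.22% (B cell). Among regions of 15 sets, those that missed a whole tissue overlapped CTCF in 11.7% and those whose missing sets were spread over tissues in 35.6%. When the B cell sets were left out of the rule, 22682 regions qualified and the share of constitutive regions with CTCF was 53.4%.

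**Figure D1:**
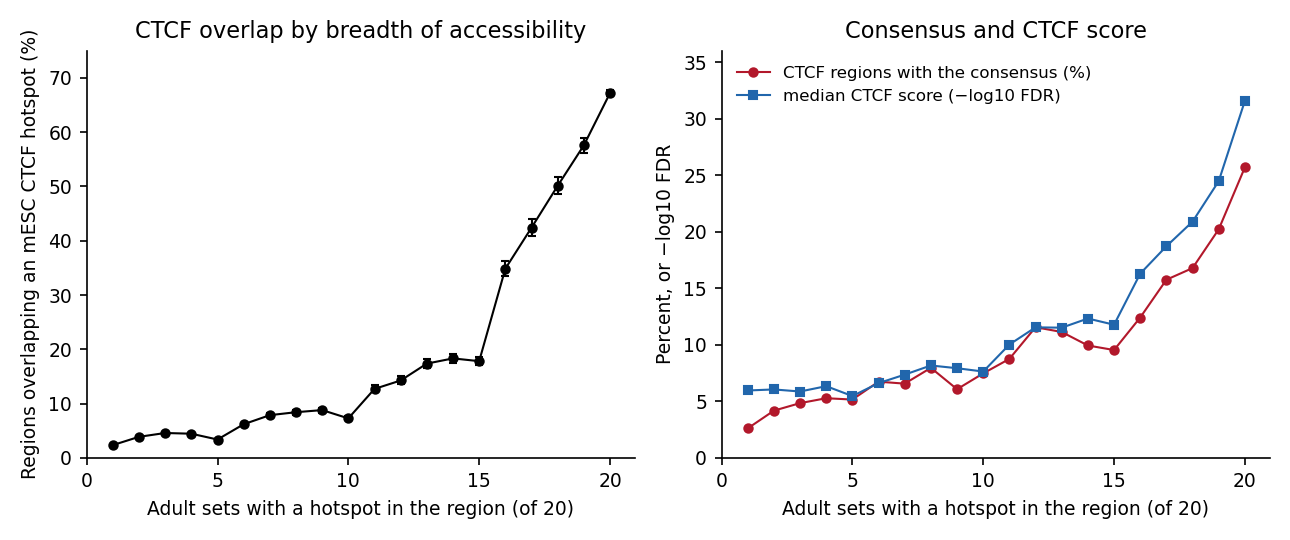
Left, the percent of merged regions that overlapped an mESC CTCF hotspot (points, with 95% Wilson intervals) by the number of the 20 adult sets with a hotspot there; right, among those CTCF regions, the percent with an exact CTCF consensus match and the median CTCF score as −log10 FDR. The share with CTCF steps from 17.8% at 15 sets to 34.9% at 16 and reaches 67.2% at 20, and the score and the consensus share are highest at 20 sets.

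CTCF itself was scored more strongly in these regions. The deposited score of a hotspot is −log10 of its FDR, with a ceiling of 100. The best CTCF score in a region had a median of 31.6 (quartiles 16.5 and 47.2), against 9.35 in the 38421 CTCF regions of 1 to 19 adult sets. The regions held 20803 of the 92712 autosomal CTCF hotspots (22.4%). Of the CTCF hotspots, 37.7% lay in no adult region, and these had a median score of 2.20 and a median width of 132 bp, compared with 28.2 and 535 bp inside the constitutive regions. Since the CTCF score is part of what chose the members, these values are a description. Just inside the rule were 431 members whose best CTCF score was below 2. Just outside it were 2677 CTCF regions found in 19 sets, with a median score of 24.5, a median width of 546 bp and a consensus share of 20.2%. The missing set was that of B6xC3H B cells, the smallest set, in 1232 of them (46.0%).

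The CTCF motif was searched as a 12-letter core consensus with 8 fixed letters and 4 letters that each allow 2 bases, on both strands of the mm10 (GRCm38) sequence. Examples are printed 5′ to 3′ on the strand of the match, with the match in capitals, to show how its variable letters and flanks differ between sites. The first are distal regions, with no annotated transcript start within 2 kb, named by the nearest protein-coding start. They are Chd2 at chr7:73618491-73618550 (minus strand), Tex44 at chr1:86440648-86440707 (plus) and Fam76a at chr4:132945673-132945732 (plus).
Chd2: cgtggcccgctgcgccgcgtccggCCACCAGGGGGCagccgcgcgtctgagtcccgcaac
Tex44: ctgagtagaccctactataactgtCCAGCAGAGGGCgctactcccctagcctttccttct
Fam76a: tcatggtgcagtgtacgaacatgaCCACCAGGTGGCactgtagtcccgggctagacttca

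Next are matches in regions that cover the start of a protein-coding gene: Tent5a at chr9:85328546-85328605 (minus), Klf3 at chr5:64813644-64813703 (minus), Mllt3 at chr4:88035623-88035682 (plus) and Mus81 at chr19:5488005-5488034 (minus, with shorter flanks because an annotated exon is close).
Tent5a: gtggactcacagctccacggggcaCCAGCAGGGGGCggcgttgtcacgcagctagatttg
Klf3: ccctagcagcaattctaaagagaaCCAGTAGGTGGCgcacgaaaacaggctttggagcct
Mllt3: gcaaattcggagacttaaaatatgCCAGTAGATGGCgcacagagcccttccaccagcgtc
Mus81: acgaggcagCCAGCAGGGGGCgccacacgc

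The last are from loci studied for insulation or long-range regulation: the region over the start of the proto-oncogene Myc at chr15:61983407-61983466 (plus), a region near Shh, which encodes a morphogen, at chr5:28451347-28451406 (plus), an intron of Lmbr1, the gene that holds the limb enhancer of Shh, at chr5:29336014-29336073 (minus), and a region downstream of Wnt6, a Wnt ligand gene, at chr1:74787995-74788054 (plus).
Myc: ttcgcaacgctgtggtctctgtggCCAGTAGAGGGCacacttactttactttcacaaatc
Shh: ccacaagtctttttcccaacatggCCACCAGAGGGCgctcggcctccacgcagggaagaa
Lmbr1: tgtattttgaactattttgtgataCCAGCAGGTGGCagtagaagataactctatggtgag
Wnt6: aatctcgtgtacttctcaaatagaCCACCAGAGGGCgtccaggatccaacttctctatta

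An exact match was present in 4719 of the 18371 regions (25.7%, interval 25.1 to 26.3%) and in 61 of the 8968 constitutive regions without CTCF (0.680%, interval 0.530 to 0.873%), against 1.23% of all merged regions. With up to 1 mismatch the shares were 70.1% and 15.7%, against 7.32% of all merged regions. The comparison regions were chosen for lacking a CTCF hotspot, so these shares are a description. In the 38421 CTCF regions of 1 to 19 adult sets the shares were 8.24% (exact) and 46.0% (up to 1 mismatch). Members were narrower than constitutive regions without CTCF, with medians of 844 and 1836 bp, so the shares were also compared at like width. Between 600 and 1000 bp, 33.3% of 5626 members, 0.472% of 847 constitutive regions without CTCF and 4.10% of all merged regions of that width held an exact match. The share was 11.6% in the 3912 CTCF regions of 1 to 19 sets of that width. Of the 12245 exact matches on the autosomes, 4821 (39.4%) lay inside members, which make up 25.6 Mb of sequence, and 8595 (70.2%) inside a CTCF hotspot.

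The match sat near the middle of the CTCF hotspot. Among the 4623 members with a single exact match, it lay inside a CTCF hotspot in 99.5% and within 50 bp of the hotspot's midpoint in 65.9% of those, at a median distance of 34 bp. The match was on the plus strand in 2272 and on the minus strand in 2351. The bases around the core also differed from those of matches outside every adult region and CTCF hotspot. CTCF was not mapped in adult tissue, and reads were kept only where unique, so such matches are not known to be unbound. The base directly after the core was A in 56.4% and G in 36.7% of the matches in members, against 36.8% and 4.02% of the 2660 matches outside every adult region and CTCF hotspot, where T followed in 35.5%. A G there forms a CpG, the dinucleotide that carries DNA methylation, with the last C of the core.

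Neighboring matches differed in their relative orientation with distance. Consecutive members with 1 exact match each formed 4604 pairs, of which 1182 were convergent (pointing toward each other), 1181 divergent and 2241 in tandem. Along a chromosome, convergent and divergent pairs must alternate, which fixes these totals to near equality, so only their change with distance is informative. At less than 10 kb, 34 pairs were convergent and 90 divergent of 249. Between 10 and 50 kb the numbers were 134 and 219 of 700. Between 50 and 200 kb the numbers were 375 and 381 of 1444. Beyond 200 kb, 639 were convergent and 491 divergent of 2211. Because the totals are near equal, the convergent excess beyond 200 kb mirrors the divergent excess at shorter distances and is not a second result. Members without an exact match were skipped in forming pairs, and pairs share sites, so no test was run.

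The regions fell into a distal and a promoter class that differed in width, CTCF score and sequence. A total of 11002 (59.9%) were distal, 4644 (25.3%) covered the first base of a protein-coding transcript and 2725 (14.8%) had another start within 2 kb. Constitutive regions without CTCF were 25.01% distal and 64.9% over a protein-coding start. Of all merged regions, 83.2% were distal and 3.01% covered such a start. At the midpoint, 55.0% of the distal members lay outside protein-coding genes, 39.9% in an intron and 5.07% in an exon.

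Distal members were compact and promoter members broad. The median width was 684 bp (quartiles 533 and 977) in the distal class and 2348 bp (1701 and 3242) over starts. The CTCF score had medians of 34.7 and 15.7, respectively, and an exact match was present in 31.4% of distal members but in 10.3% of those over starts, although the latter were wider. In the central 300 bp the shares were 23.5% and 2.13%. More than 1 CTCF hotspot overlapped 6.48% of distal members and 22.5% of those over starts. The central 300 bp had a median GC content of 47.7% and a CpG observed-to-expected ratio of 0.235 in distal members, against 61.3% and 0.703 over starts. The same values over starts without CTCF were 62.3% and 0.758.

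**Figure D2:**
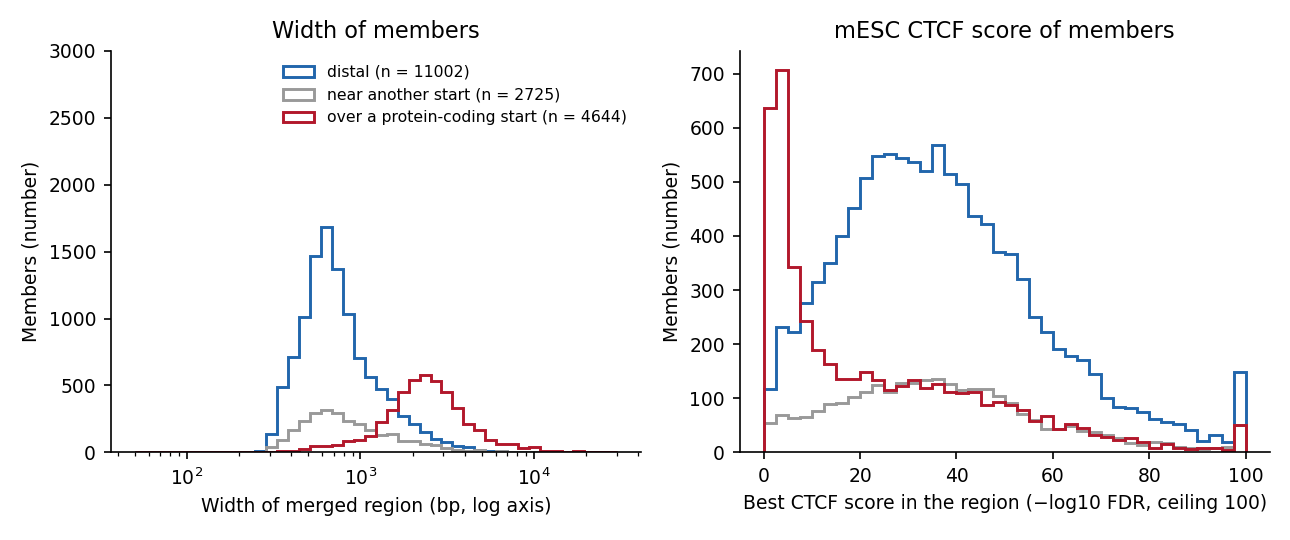
Number of members by width of the merged region in bp (left, log axis) and by the best mESC CTCF score in the region as −log10 FDR (right, ceiling 100), for 11002 distal members, 2725 near another start and 4644 over a protein-coding start. Distal members peak at narrow widths (median 684 bp) with scores around a median of 34.7, whereas members over starts are wider (median 2348 bp) and many of them have scores under 5.

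Low-scoring CTCF overlap was concentrated at promoters. Of the 431 members with a best CTCF score under 2, 78.9% covered a protein-coding start and 1.39% held an exact consensus match. Of the 6314 members with a score from 40 to below 100, 16.3% covered a start and 32.0% held an exact match. Median width fell from 2249 to 780 bp between these bins. At the ceiling of 100 were 222 members, with 21.2% over a start and 24.3% with an exact match.

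**Figure D3:**
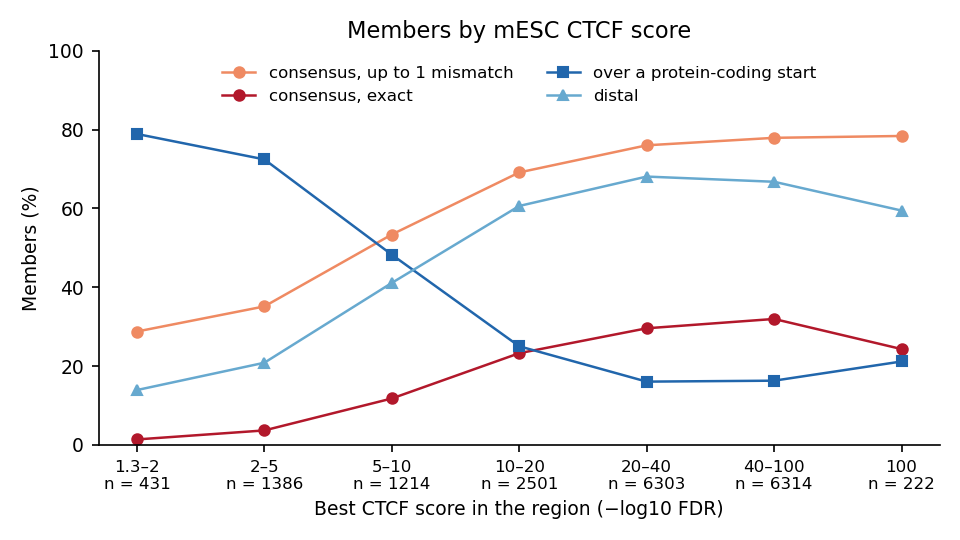
Percent of members with the CTCF consensus (exact, or with up to 1 mismatch), over a protein-coding start, and distal, in bins of the best mESC CTCF score (−log10 FDR). The start share falls from 78.9% in the lowest bin to 16.3% between 40 and 100, where the exact consensus reaches 32.0%.

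Motifs of promoter-binding factors were counted with exact words on both strands. SP/KLF, zinc finger factors of GC-rich promoters (GGGGCGGG), matched in 20.4% of members, 43.0% of constitutive regions without CTCF and 2.77% of all merged regions. The ETS word (CCGGAAGT) matched in 4.26%, 11.5% and 0.677%, the NRF1 word (GCATGCGC) in 4.09%, 8.30% and 0.683%, and the NFY word (CCAATCAG) in 4.89%, 10.9% and 1.52%. The YY1 word (AAGATGGCG) matched in 2.33%, 4.90% and 0.286%, and the ZNF143 word (ACTACAATT) in 0.855%, 1.57% and 0.208%. Members are wider than most merged regions, which raises these shares. In the central 300 bp the shares in members and in all merged regions were 6.35% and 1.72% for SP/KLF, 1.17% and 0.433% for ETS, 1.03% and 0.450% for NRF1 and 0.800% and 0.240% for YY1. There the direction turned for NFY (1.03% and 1.26%) and ZNF143 (0.152% and 0.176%). Per kb, NFY was also less frequent in members (0.038 and 0.043 matches), whereas ZNF143 was slightly more frequent in them (0.0062 and 0.0056). At protein-coding starts the members and the constitutive regions without CTCF were closer, with 59.2% and 56.99% for SP/KLF, 10.8% and 10.4% for NRF1 and 12.4% and 15.3% for ETS. Members were the wider class there, with median widths of 2348 and 2072 bp. Per kb the order turned for SP/KLF (0.461 and 0.489 matches) and NRF1 (0.054 and 0.062). It also turned in the central 300 bp, with 17.66% and 20.35% for SP/KLF and 2.33% and 2.51% for NRF1. In distal members the SP/KLF word matched in 6.53%, against 15.3% of distal constitutive regions without CTCF. The shares of the ETS, NRF1, NFY and ZNF143 words were also lower in distal members, whereas that of YY1 was higher (0.882% and 0.580%). Per kb, ZNF143 was higher in distal members as well (0.0062 and 0.0047 matches).

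Most members were also accessible in the stem cells. A DNase-seq hotspot of the mESCs overlapped 94.9% of members, 76.9% of constitutive regions without CTCF and 9.47% of all merged regions. At protein-coding starts both classes were near the top, at 98.5% and 95.2%. Away from starts the shares were 93.8% of 11002 distal members and 37.1% of 2243 distal regions without CTCF. The same gap was present at like width, with 96.0% and 29.6% between 600 and 1000 bp. CTCF was mapped in the same cells, so accessibility there is not independent of the rule.

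Distal members between 400 and 2000 bp varied less across the 20 sets than distal constitutive regions without CTCF. For each region the bases covered by hotspots were counted in each set, and the highest set was divided by the lowest. Over all widths the median ratio was 2.73 in distal members and 4.99 in distal regions without CTCF, and it exceeded 5 in 14.6% and 49.9% of them. Wider regions had higher ratios, and between 600 and 1000 bp the medians were 2.72 and 4.12, with 7.64% and 35.0% above 5. The difference was not present at all widths. Under 400 bp the medians were 2.18 in members and 1.86 without CTCF, and from 2000 bp on 68.8% and 69.4% exceeded 5. Over protein-coding starts the medians were 2.66 with and 2.65 without CTCF, and the ratio exceeded 5 in 19.1% and 15.9%. All 20 sets chose the members and enter each ratio, so these are descriptions.

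Within a set, members as a whole were less often at the score ceiling and covered fewer bases than constitutive regions without CTCF, which hold a larger share of promoters, and the comparison differed within the distal and promoter classes. In liver the percent of members with a hotspot at the ceiling was 59.5 (B6x129), 42.9 (B6xC3H), 26.6 (B6xCAST), 30.9 (B6xPWK) and 18.6 (B6xSPRET). In kidney it was 15.4, 19.3, 34.5, 23.3 and 13.9 in the same order of hybrids. In lung it was 19.6, 3.85, 31.0, 9.07 and 8.75, and in B cells 37.3, 10.1, 51.5, 25.8 and 13.6. The tissues overlapped, and each spanned a wide range of hybrids. The share in constitutive regions without CTCF was higher in all 20 sets, by 7.93 to 33.8 percentage points. Over protein-coding starts the members minus the regions without CTCF gave -7.12 to -2.08 points, negative in all 20 sets. Among distal regions they were lower in 15 sets and higher in 5, with a mean of 13.7% in members and 15.8% without CTCF. The highest positive difference was in B6x129 liver, with 51.2% and 34.15%. The median score of distal members was higher in 16 of 20 sets. Members at the ceiling in no set made up 32.1% of the distal class and 5.92% of those over starts, and 499 of the latter were at the ceiling in all 20 sets, compared with 7 distal members.

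The median bases covered ranged over the sets from 315 (B6xC3H B cells) to 639 (B6x129 liver) in members and from 769 to 1478 in constitutive regions without CTCF. The log2 ratio of these medians was -1.31 ± 0.12 (SD, n = 20 sets) and negative in all sets. Within the distal class it was -0.68 ± 0.22 and also negative in all sets, whereas over protein-coding starts it was 0.17 ± 0.03 and positive in all 20 sets. The size of the difference over all regions thus includes the unequal share of promoters. Whether the ratio over all regions, or the difference in the share at the ceiling, depended on tissue or hybrid was tested by exact two-sided permutation of labels within hybrids or within tissues, with adjustment by Benjamini-Hochberg over 18 tests. The same 20 sets chose both classes of regions, so the tested values are not independent of the rule. No test passed an adjusted p of 0.05. The lowest p was for kidney, where the log2 ratio was -1.19 ± 0.13 (SD, n = 5) against a mean of -1.35 in the other tissues, a difference of 0.16 that was positive in 4 of 5 hybrids (exact permutation p = 0.00391, where the smallest possible is 0.000977; adjusted p = 0.070). With the widest hotspot of each region in place of bases covered, kidney passed (adjusted exact permutation p = 0.018), as it did without B6x129 (0.031), the other 4 leave-one-out values being 0.094 to 0.125. For the share at the ceiling the lowest p was that of B6xC3H (exact permutation p = 0.128, adjusted 0.576), with a difference of 5.84 points.

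**Figure D4:**
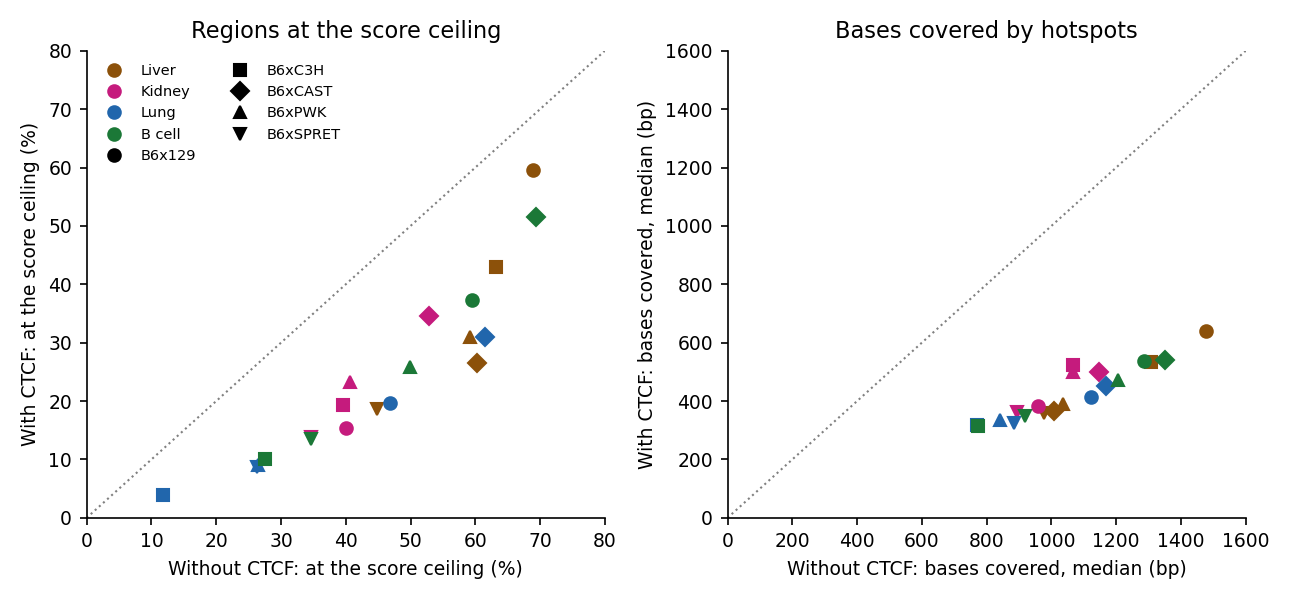
Each of the 20 adult sets as a point (color, tissue; shape, hybrid), with constitutive regions without CTCF on the x axis and those with CTCF on the y axis, for the percent of regions at the score ceiling (left) and the median bases covered by hotspots (right). All points lie below the dotted line of equal values, and the tissues overlap along the trend.

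Some members nevertheless differed by tissue in how much of the region was open. All 5 liver sets exceeded the other 15 in bases covered at 848 members (4.62%), against a background of 5.23% of constitutive regions, and all 5 lay below them at 32 (0.174%, background 0.326%). In kidney 156 members (0.849%, background 0.746%) were above and 39 (0.212%, background 0.534%) below. In lung 80 (0.435%, background 0.406%) were above and 108 (0.588%, background 0.556%) below. In B cells 291 (1.58%, background 2.26%) were above and 414 (2.25%, background 2.34%) below. The background, which includes the members, was exceeded by small amounts for kidney above and for lung in both directions, and not in the other 5 cases. The gaps were larger against constitutive regions without CTCF alone, with the same directions. There the shares above and below were 6.48% and 0.636% for liver and 0.535% and 1.19% for kidney. They were 0.346% and 0.491% for lung and 3.635% and 2.53% for B cells. The number of hotspots also differs between tissues, and its part in these counts was not tested. In bulk tissue more cells of a type and more accessibility per cell cannot be told apart.

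The fixed loci held examples of both kinds. At the H19 and Igf2 imprinted domain, where CTCF binding on the maternal allele separates the Igf2 growth factor gene from its enhancers, a 1093-bp region upstream of H19 (chr7:142580013-142581105) held 2 CTCF hotspots with a best score of 9.98 and no match with up to 1 mismatch, and it had no mESC DNase-seq hotspot. It covered 986, 966, 676, 816 and 744 bases in liver and 582, 855, 831, 748 and 693 in kidney, in the order of hybrids above. In lung it covered 566, 413, 723, 367 and 391, and in B cells 926, 550, 980, 903 and 746. The lung sets held the 3 lowest values and all tissues overlapped. Igf2 had 2 further members within 10 kb, of 514 and 355 bp, and Meg3, a noncoding RNA gene of another imprinted domain, had 1 of 566 bp.

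Several compact members changed little. The member near Shh (chr5:28451176-28451656, score 46.9) covered 236 to 468 bases with a median of 321 over the 20 sets. The Wnt6 member upstream of the gene (chr1:74763122-74763471) covered 249 to 350 bases, with a median of 279, and 1 in an intron of Lmbr1 (chr5:29293195-29293721) had a CTCF score at the ceiling of 100 and covered 264 to 527. The broad region over the Myc start (chr15:61982960-61988515) held 5 CTCF hotspots and covered 3867 to 5495 of its 5556 bp. In these regions the tissues overlapped.

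Other members were wide in 1 tissue and far narrower elsewhere. The region over the start of Apoa1 (chr9:46228106-46236142), which encodes the main protein of high-density lipoprotein, covered 7970, 7730, 7304, 7791 and 5541 bases in liver and 1217 to 1528 in kidney, 375 to 731 in lung and 190 to 334 in B cells. Liver lay above all other sets. The region at Slc34a1 (chr13:55403236-55415921), the phosphate transporter of the proximal tubule, covered 3011, 5651, 12008, 12387 and 4097 bases in kidney and 216 to 2323 in the other 15 sets. A 15153-bp region of the Hoxa cluster that covers starts annotated to Hoxa3, Hoxa6 and Hoxa7 (chr6:52208006-52223158) covered 7083, 13128, 14613, 11507 and 10263 bases in kidney and 594 to 5170 elsewhere. The region at Hoxb7 and Hoxb8 (chr11:96278438-96287423) covered 7738, 8455, 8749, 4047 and 4334 in kidney and 330 to 2443 elsewhere. Hox genes encode the transcription factors of the body axis, and at both of these regions kidney was the highest tissue with no overlap. At 3 other members of the Hoxa cluster kidney and liver overlapped, for example at chr6:52270511-52271209, with 586 to 694 and 639 to 691 bases. At Ihh (chr1:74947879-74952297), a hedgehog ligand gene, the 5 B cell sets covered 282 to 595 bases and the liver and kidney sets 2165 to 4056, with lung between 472 and 2513.

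**Figure D5:**
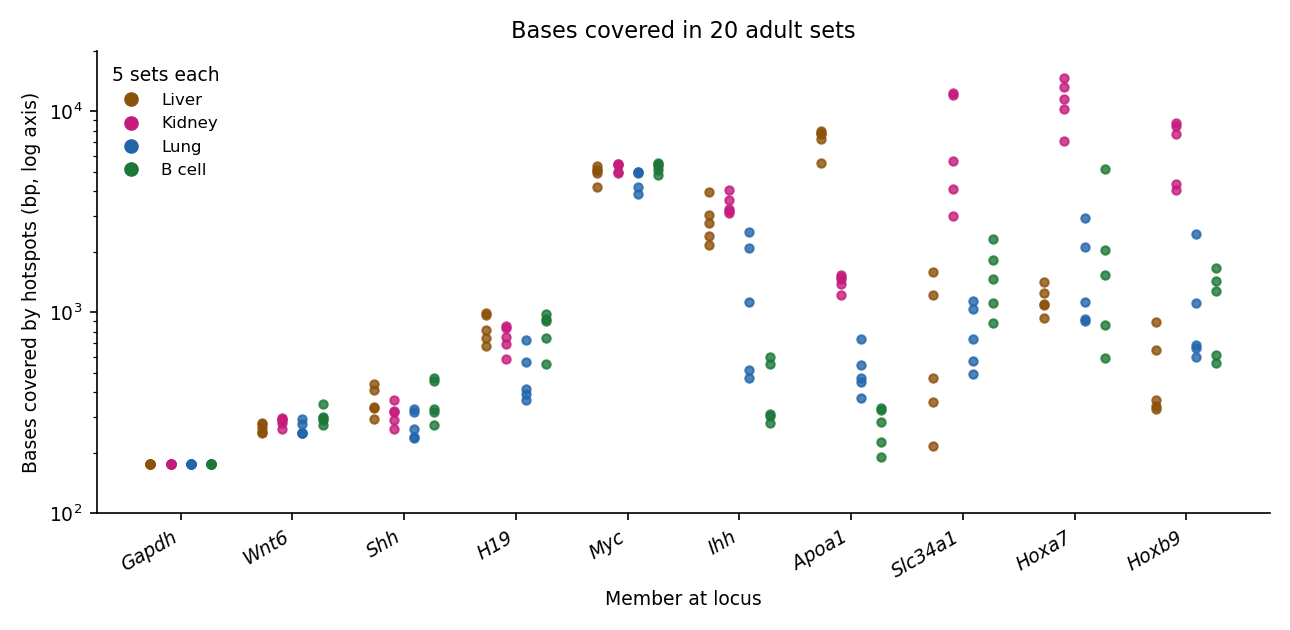
Bases covered by hotspots (bp, log axis) at 10 members of the fixed loci in each of the 20 adult sets, 5 per tissue. At Gapdh, Wnt6, Shh, H19 and Myc the tissues overlap, whereas Apoa1 is highest in the 5 liver sets and Slc34a1, Hoxa7 and Hoxb9 (the locus with the region at Hoxb7 and Hoxb8) in the 5 kidney sets.

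Genes of the CTCF and cohesin machinery often had a member at the start. Of 20807 protein-coding genes, 24.02% had a member over a start and 30.6% a constitutive region without CTCF. This background includes genes with no constitutive start, whereas 15 of the 16 machinery genes had a start covered in all sets of each tissue. Of all genes, 4998 had a member over a start, 6365 a constitutive region without CTCF and 421 both. Of 16 machinery genes, 11 had a member: Ctcf itself, the cohesin subunits Smc3 and Stag1, the loader Nipbl, the cohesin regulators Pds5a and Pds5b, the acetyltransferase Esco1, the remodelers Chd8 and Bptf, and the zinc finger genes Yy1 and Maz. Rad21, Mau2, Wapl and Esco2 had a constitutive region without CTCF only, Chd8 had both, and the start of Zfp143 was covered in no adult set, although a 501-bp member lay in an intron of it. The member at the Ctcf start (chr8:105634848-105638297) had a CTCF score of 20.2, no match with up to 1 mismatch, and covered 1526 to 3391 bases with a median of 2032. A compact one in an intron of the same gene (chr8:105661192-105661576, score 36.8) covered 127 to 385. At Stag1 the region over a start held 2 exact matches and covered 2637 to 4306 bases.

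Among 13 housekeeping genes, 4 had a member over a start, among them Actb, Rplp0 and Tubb5, and the other 9 had a constitutive region without CTCF. All 13 had a member within 10 kb, 20 in total, against 57.7% of all protein-coding genes, which had a mean of 1.02 members within 10 kb of the gene body. The insulator list of 25 genes had 23 pairs of a gene and a member within 10 kb, at 16 genes, with 1 region shared by Hoxa7 and Hoxa9, and 3 starts with a member: Myc, Ihh and Hoxa7. Members also lay near tissue marker genes, with 10 within 10 kb of the 5 B cell markers, 7 near 4 of 5 kidney markers, 3 near 3 of 5 lung markers and 1 near 1 of 5 liver markers. Of these 20 markers, only Apoa1 and Slc34a1 had a member over a start. A member covers a start with its merged span, and the start itself need not lie in a hotspot of each set. Hotspots covered the Apoa1 start in the 5 liver sets only and the Slc34a1 start in the 5 kidney sets only. The Ihh start was covered in 1 lung set and in no B cell set. Near the pluripotency gene Nanog a 646-bp member (chr6:122719810-122720455, score 67.9) covered 269 to 646 bases in the adult sets, while no adult hotspot covered the Nanog start.

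The members with 1 CTCF hotspot, 1 exact match and the most bases covered in their lowest set were broad regions, not typical ones. Among 3050 eligible distal members the first was 73985 bp from the nearest protein-coding start, Chd2 (chr7:73615815-73619728), and covered 1993 to 3557 bases with a CTCF score of 46.8. The next were near Tex44 (1882 to 4277), Azin1 (1800 to 4148), Arhgef2 (1417 to 2541), Atf7ip (1397 to 4528), Trappc9 (1255 to 2333), Fam76a (1186 to 3223) and Fos (1154 to 2778), the last being the gene of an AP-1 subunit. None of these 8 had its midpoint within a protein-coding gene. The member near Trappc9 was at the ceiling in all 20 sets, that near Arhgef2 in 6. Among 328 eligible members over starts the first 8 were at Tent5a (2394 to 5021), Tlcd2 (2370 to 6320), Aftph (2345 to 4373), Cdk2ap2 and Pitpnm1 (2282 to 4583), Klf3 (2019 to 3235), Cdyl (1908 to 2911), Mus81 (1900 to 2339) and Mllt3 (1890 to 5352). All 16 had an mESC DNase-seq hotspot, and their CTCF scores ran from 4.43 at Atf7ip to 52.6 at Tlcd2.

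Members were spread over all 19 autosomes at 5.47 (chromosome 3) to 12.7 (chromosome 11) per Mb, and the share of constitutive regions with CTCF was 64.6 to 70.3% on each. The median gap between neighboring members was 39.2 kb, and 19.2% of gaps were under 10 kb.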

How the data were processed

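Replicate libraries were pooled by the authors for each hybrid and tissue, and reads were trimmed (Trimmomatic), aligned (BWA) to mm10 and to the parent strain's genome and kept where unique. DNase I hotspots were called with hotspot2 at an FDR of 5%. The deposited BED files hold coordinates and, for each hotspot, the −log10 of its FDR up to a ceiling of 100. Score and hotspot width can depend on sequencing depth, which the files do not hold, so classes of regions were compared within a set. CTCF ChIP-seq hotspots were deposited in the same form. RNA-seq tables were not used.

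Hotspots of the 20 adult sets were merged with a script in Python 3.11.15 (numpy 2.4.6, pandas 2.3.3). Members and gene lists were chosen with earlier results of these data known. Starts and exons were taken from GENCODE annotation of mm10, and sequence from the GRCm38 RefSeq assembly. "Near" in a list means within 10 kb of the gene body. Named regions were the 8 distal and 8 start members, off chromosome 18, with 1 CTCF hotspot, 1 exact match and the largest bases covered in their lowest set. Bases covered are the bases of a region inside hotspots of a set. Intervals are 95% Wilson intervals and cover counting error only. Tests were exact permutations of labels over sets. A p-value is the share of label assignments with a mean difference at least as large in size as the observed one. Libraries were pooled, so the spread between replicates is not measured. The sets tested also chose the regions, so the tested values are not independent of the rule. Overlap, motif and permutation code was tested on simulated data. Alternatives were an FDR of 1%, stricter CTCF overlap, merging up to 150 bp apart, other motif and start rules, and leaving out each hybrid or tissue.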

Additional observations from a re-analysis of the deposited data

How the results depend on the processing

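With adult hotspots of FDR 1% there were 17349 regions, all lying in a region of the 5% rule, 95.5% of them with an mESC DNase-seq hotspot and 26.3% over a protein-coding start. With CTCF hotspots of FDR 1% the share of constitutive regions with CTCF was 65.6% and the start share 24.0%, with at least 0.5 of a CTCF hotspot's length inside the region the former was 66.3%, and with merging up to 150 bp apart the shares were 67.8% and 26.7%. The consensus share was 70.1% with 1 mismatch and 17.5% in the central 300 bp. The start share was 29.3% within 1 kb and 27.6% with starts of all genes. Leaving out each hybrid or tissue gave 18398 to 22682 regions, of which 53.4 to 67.3% of constitutive regions had CTCF, 91.7 to 94.8% of members an mESC hotspot, 24.0 to 25.7% the consensus and 22.5 to 24.9% a protein-coding start. The low end of the CTCF share (53.4%) was without B cells. Of the tests on tissues, none passed for the share at the score ceiling under any alternative. For bases covered, 1 tissue (kidney) passed with the widest hotspot, 0 to 1 with a hybrid left out, and 1 hybrid (B6xC3H) among distal regions alone, where its log2 difference was 0.30 (adjusted exact permutation p = 0.029) and that of B6xSPRET turned from -0.11 to 0.034. For the share at the ceiling, B6xC3H turned from 5.84 points to -0.68 when the percentile of the best hotspot was used. The causes were not tested. Pairing by library was not possible because libraries were pooled before hotspots were called, so that replicate numbers could not serve as a block. Hybrid or tissue was held fixed in every permutation.

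The files give no read counts, each mESC assay is 1 file, and whether a region counts as constitutive depends on the sensitivity of the set with the fewest hotspots.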

Other observations

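Chromosome X was outside the rule. It held 757 regions with a hotspot in all 20 adult sets, of which 502 (66.3%, Wilson interval 62.9 to 69.6%) overlapped an mESC CTCF hotspot, with a median width of 775 bp, next to 67.2% and 844 bp on the autosomes.

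At 5 members, chosen after their values were seen, the bases covered were the same in all 20 sets. They included a 175-bp region at chr6:125162068-125162242 in an exon of Gapdh, a glycolytic enzyme gene, with an exact consensus match and a CTCF score of 16.3, and regions of 95 bp (a pair on chromosome 1), 69 bp (chromosome 7) and 145 bp (chromosome 12). Among the 8968 constitutive regions without CTCF there were 14 of this kind.

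The 2660 exact consensus matches outside every adult region and CTCF hotspot had G as the fourth base of the core in 71.5%, against 41.9% in members, where C was more frequent (58.1%).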
